A study of Mus musculus with 4 samples.

Results

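The genes that write, read and erase N6-methyladenosine (m6A) were examined in the RNA-seq data of NIH/3T3 fibroblasts, an established mouse cell line, after siRNA knockdown of *Setd2*. The 10 genes were chosen by name, and every row of the authors' deposited transcript table that carries their symbols was used, which gave 24 transcripts of 10 genes among 34200 transcripts of 21945 genes. KD cells were transfected with 2 siRNAs against *Setd2* together and WT cells with a Scrambled siRNA that targets no gene. The final siRNA concentration was 10 nM, and polyadenylated RNA was taken 48 h later. Both groups were the same otherwise unmodified line and had 2 libraries each. The labels number the libraries but do not say how they pair, and the design text speaks of 3 transfections, of which 2 libraries per group were used here.

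SETD2 is the enzyme that trimethylates lysine 36 of histone H3 over transcribed genes. METTL14 recognises this mark, which connects it with the placement of m6A on nascent RNA. METTL3 carries the catalytic site of the m6A writer and METTL14 is its RNA-binding partner. WTAP anchors the pair in nuclear speckles and ZC3H13 keeps the complex in the nucleus. The modification is bound in the cytoplasm by YTHDF1, YTHDF2 and YTHDF3 and in the nucleus by YTHDC1, and it is removed by the demethylases ALKBH5 and FTO.

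Levels are given in normalised estimated counts, the unit in which the authors quantified transcripts, and as a mean over the 2 libraries of a group on the log scale. A transcript was called when the q-value of Sleuth's likelihood ratio test, adjusted over all transcripts, was under 0.05. The deposited comparison holds means, effects and variances but no values of single libraries, so the depth of each library is unknown. From these variances the SD between libraries of the same group was computed. Where the difference between the groups was too large for any library of KD to reach a library of WT, the libraries are described as separate. With 2 libraries a group and no statement of how the cultures were kept apart, the q-values hold for these libraries only. Beside the spread between the libraries, they draw on the variance from read assignment and on a smoothed variance of Sleuth.

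The knockdown was present in these libraries, as the level of the single tested *Setd2* transcript was 923 in KD and 3680.4 in WT. Its log2(fold change) was −1.99 with a standard error of 0.09, and the libraries were separate (likelihood ratio q = 0.0103). All 7 fibroblast markers were present, with levels from 4426 to 346235 over both groups. The highest level of a leukocyte marker was 391 and that of an endothelial marker was 39.4. Of 4 epithelial markers 2 were tested, *Cdh1* with at most 140 and *Krt8* with at most 29.1 in either group.

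Isoforms of the members differ in short stretches of sequence, so the bases that tell them apart are shown first, read from the GENCODE M21 transcripts of GRCm38 in the 5′ to 3′ direction of the gene. The first set holds the ends of the reading frames that run into an intron. The 9 bases in lower case are the end of the last complete coding exon, and capitals mark the intron bases up to and including the stop codon. The coordinates span the whole run.

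*Wtap* ENSMUST00000159986.7 and ENSMUST00000160781.7, chr17:12975292-12975304, minus strand: gcctgatagGTAA
*Mettl14* ENSMUST00000090371.13, chr3:123374736-123374753, minus strand: tgggatgatGTACGGTGA
*Mettl14* ENSMUST00000174323.5, chr3:123371207-123371283, minus strand: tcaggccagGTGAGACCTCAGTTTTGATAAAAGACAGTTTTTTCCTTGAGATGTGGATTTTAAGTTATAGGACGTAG
*Fto* ENSMUST00000136802.7, chr8:91485270-91485290, plus strand: gagagcatgGTAAGTGCGTGA
*Fto* ENSMUST00000125471.7, chr8:91441798-91441871, plus strand: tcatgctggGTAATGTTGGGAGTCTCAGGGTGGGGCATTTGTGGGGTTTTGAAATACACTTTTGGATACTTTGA

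In each of these runs the intron begins with the bases GT of a splice donor that stays unspliced in the transcript. The second set holds coding stretches that are present in some tested isoforms and absent from others. Capitals mark the stretch, the 6 bases in lower case on each side are the neighbouring coding bases of the spliced transcript, and the coordinates are those of the stretch alone.

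*Zc3h13* ENSMUST00000227049.1, chr14:75335922-75335924, plus strand: ttgaagCAGgagatg
*Ythdf3* ENSMUST00000108346.4, chr3:16203187-16203219, plus strand: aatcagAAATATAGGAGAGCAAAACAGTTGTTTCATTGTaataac
*Ythdc1* ENSMUST00000120498.7, chr5:86820633-86820686, plus strand: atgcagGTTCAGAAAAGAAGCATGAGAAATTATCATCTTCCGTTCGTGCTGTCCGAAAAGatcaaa
*Ythdc1* ENSMUST00000038384.7, chr5:86831773-86831796, plus strand: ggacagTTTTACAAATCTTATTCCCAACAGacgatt

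All 10 genes were detected, and their levels per kb of transcript, summed over the tested transcripts, spanned less than one order of magnitude. In WT the nuclear reader *Ythdc1* had the highest summed level with 2431 normalised estimated counts per kb, followed by *Wtap* with 1931. *Ythdf3* had 1457, *Ythdf1* 1215, *Alkbh5* 1075, *Ythdf2* 812 and *Fto* 773 normalised estimated counts per kb. The catalytic core and its nuclear anchor were lowest, with 601 for *Mettl14*, 443 for *Zc3h13* and 389 for *Mettl3* in the same unit. The gap between *Ythdf2* and *Fto*, 0.07 on the log2 scale, was smaller than the SD between libraries of their most abundant transcripts (at most 0.08), and the other gaps between neighbours in WT were larger than the corresponding SD. In KD, *Alkbh5*, *Ythdf1* and *Ythdf3* lay at 1342, 1318 and 1298 normalised estimated counts per kb and could not be ordered by this measure, nor could *Ythdf2* and *Fto*, and *Mettl3* with 456 lay above *Zc3h13* with 413. *Ythdc1* and *Wtap* were the highest of the 10 genes in KD as well, with 2249 and 1956 normalised estimated counts per kb.

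**Figure D1:**
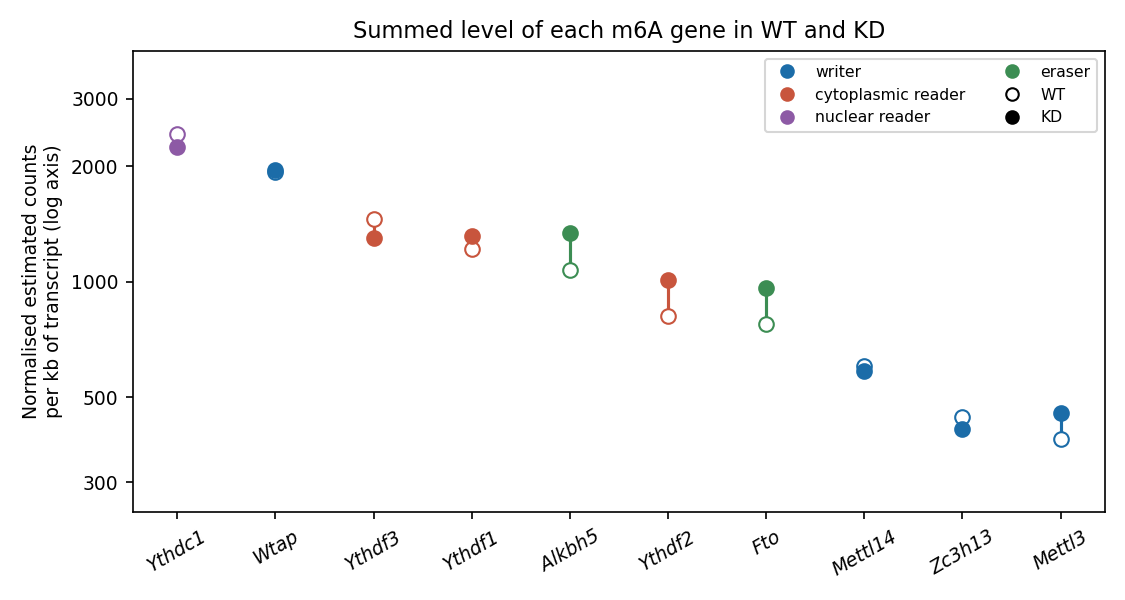
Summed level of each gene in WT (open circles) and KD (filled circles), in normalised estimated counts per kb of transcript on a log axis, with genes ordered by their WT level and coloured by role. Each circle sums the levels of the tested transcripts of a gene, computed from the authors' means and effects for 2 libraries a group. No error bar can be drawn for such a sum. *Alkbh5*, *Ythdf2* and *Fto* show the widest upward steps in the deposited scaling (not relative to *Actb*), from 1075 to 1342, from 812 to 1007 and from 773 to 962, while the steps of *Wtap* and *Mettl14* are small.

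Summed over their transcripts, 6 of the 10 genes had a higher level in KD than in WT in the deposited scaling, while all 10 were lower relative to *Actb*. For the summed level, the median log2(fold change) was 0.09 over the members and −0.03 over all genes tested, and relative to *Actb* that of the members was −0.36. The authors also deposited a q-value for each gene, which combines the p-values of its transcripts and carries no direction. It was under 0.05 for 24% of all genes and for 4 members, namely *Wtap* (q = 0.00774), *Alkbh5* (q = 0.0167), *Fto* (q = 0.0200) and *Ythdf2* (q = 0.0343). The other members had gene q-values from 0.0710 for *Mettl14* to 0.631 for *Ythdf1*. All of these stem from the likelihood ratio test. In the Wald test the gene q-value of *Mettl14* was 0.915, so the value of 0.0710 does not mark a near change. The summed level of *Wtap* had a log2(fold change) of 0.05, and 1 of its 4 tested transcripts was called, a rare isoform described below.

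Of the 24 transcripts, 4 were called, which is 16.7% of them against 12.5% of all transcripts tested. In the deposited scaling, though not relative to *Actb*, the main transcripts of *Ythdf2*, *Alkbh5* and *Fto* were higher in KD, and the fourth, a rare *Wtap* isoform, was lower. Over all transcripts, 7.26% were called higher and 5.21% lower in KD. Where the mean level reached 100 normalised estimated counts, 21.4% of transcripts were called, and so were 3 of the 20 members above that limit. With the q-values adjusted again over the transcripts of at least 100 counts, 15% of the members were called against 34.2% of all transcripts, and with a limit of 1000 counts 35.7% against 66.2%. No excess of calls over the background was thus seen among the members above these limits. The Wald q-value was under 0.05 for 5 member transcripts against 18.2% of all transcripts, and limma's moderated test, computed from the deposited means and variances, called 1 member against 9.68% of all transcripts. The libraries of KD and WT were separate for 12 of the 24 member transcripts, against 54.8% of all transcripts.

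**Figure D2:**
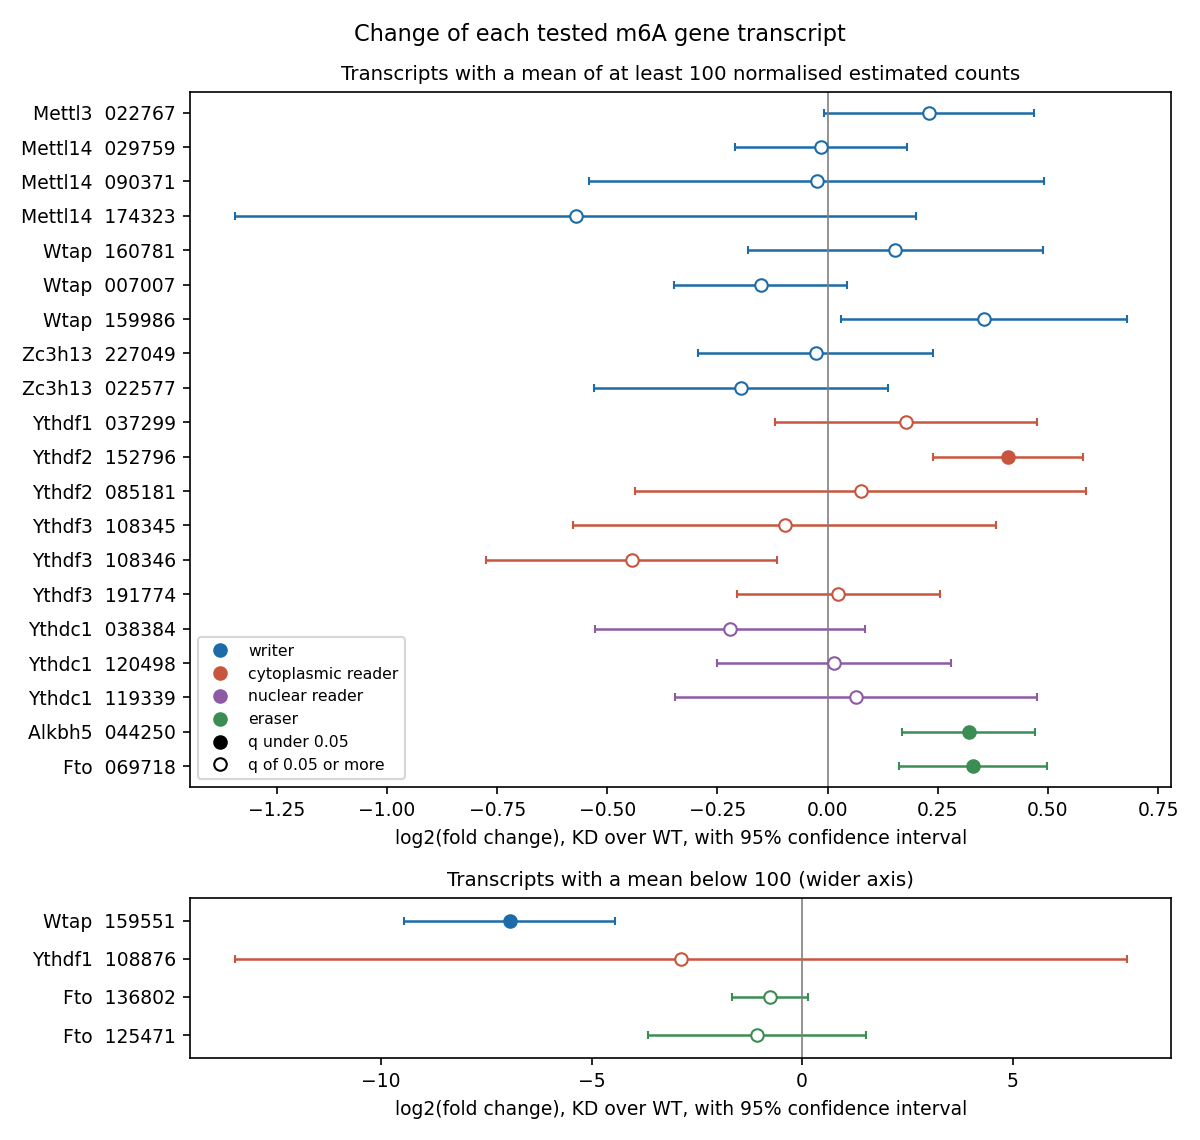
The log2(fold change) of KD over WT with its 95% confidence interval for each of the 24 member transcripts, named by gene and the last 6 digits of the transcript identifier, coloured by role and filled where the q-value was under 0.05. Transcripts with a mean below 100 are in the lower panel on a wider axis. *Ythdf2*, *Alkbh5* and *Fto* lie to the right of 0 at 0.41, 0.32 and 0.33, although relative to *Actb* their estimates are −0.05, −0.14 and −0.13, and the called *Wtap* isoform lies far to the left.

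Among the cytoplasmic readers, *Ythdf2* was the gene with a called transcript. YTHDF2 directs m6A-marked transcripts to decay by recruiting the CCR4-NOT deadenylase. The gene lies on chromosome 4 from 132184912 to 132212303 on the minus strand. Its main transcript, ENSMUST00000152796.7, which encodes 579 residues, had a level of 3029 in KD and 2282 in WT. The log2(fold change) was 0.41 (standard error 0.09, 95% confidence interval 0.24 to 0.58, likelihood ratio q = 0.0268). On this scale the libraries of KD lay at least 0.30 above those of WT, and the SD between libraries was 0.08. The adjusted p-value of limma's moderated test was 0.0551, just above the threshold. Part of this transcript resembles other loci. Among annotated transcripts with GENCODE's basic tag, 85.8% of its words of 31 bases occur in no other gene. Most of the remainder occur in the processed copies *Gm6823* and *Gm8401*, neither of which was analysed here. The short isoform ENSMUST00000085181.4, which skips the large coding exon and encodes 51 residues, had a level of 261 in KD and 248 in WT (log2(fold change) 0.08, standard error 0.26, q = 0.611). The difference in change between the isoforms was not tested, and the main isoform made up 72.8% of the length-scaled level of the gene in KD and 68.0% in WT.

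The erasers were both represented by a called main transcript. ALKBH5 removes m6A from nuclear RNA. Its single tested transcript, ENSMUST00000044250.3 on chromosome 11 from 60537978 to 60558512, was the most abundant of the 24 transcripts before correction for length, with a level of 7689.8 in KD and 6157 in WT. The level was 24.9% higher in KD, with a 95% confidence interval from 12.5% to 38.7% (log2(fold change) 0.32, standard error 0.08, q = 0.0279). The SD between libraries was 0.04 on the log2 scale and the libraries were separate by at least 0.26. In limma's moderated test the adjusted p-value was 0.0562.

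*Fto*, whose product demethylates m6A and the related cap-adjacent mark, spans chromosome 8 from 91313525 to 91668439 on the plus strand. Its full-length transcript ENSMUST00000069718.14, which encodes 502 residues, had a level of 3399.9 in KD and 2704 in WT. The level was 25.7% higher in KD, with a 95% confidence interval from 12.0% to 41.2% (log2(fold change) 0.33, standard error 0.09, q = 0.0310). The libraries were separate by at least 0.28 and their SD was 0.04, both on the log2 scale. The adjusted p-value of limma's moderated test was 0.0602, and after all effects were centred on a trend with GC content the log2(fold change) was 0.22 with a Wald q-value of 0.0615. The transcripts that end inside introns 4 and 7, whose stop codons are shown above, were rare. ENSMUST00000136802.7 had a level of 24 in KD and 40.9 in WT (log2(fold change) −0.76, standard error 0.46, q = 0.216), with separate libraries. ENSMUST00000125471.7 had 6.2 in KD and 13.6 in WT (log2(fold change) −1.08, standard error 1.32, q = 0.622), and the libraries overlapped or could have. Together these intron-ending forms made up 0.83% of the length-scaled level of *Fto* in KD and 1.86% in WT, so the called change was that of the transcript with the complete reading frame.

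The direction of these calls changed relative to *Actb* but not in the other scalings. Centred on the median of all transcripts, the log2(fold change) was 0.42 for *Ythdf2*, 0.33 for *Alkbh5* and 0.34 for *Fto*. All of these were called in the Wald test. Centred on GC content, it was 0.48 for *Ythdf2* (Wald q = 7.5e-07), 0.28 for *Alkbh5* (Wald q = 0.0033) and 0.22 for *Fto* (Wald q = 0.0615). The tested *Actb* transcript, which encodes cytoplasmic actin, was itself higher in KD by 0.46 on the log2 scale, so division by it shifts every transcript down by that amount. Relative to *Actb*, the log2(fold change) was −0.047 for *Ythdf2*, −0.14 for *Alkbh5* and −0.13 for *Fto*, none of them called, whereas in the table as deposited all of them rose. The median log2(fold change) of all transcripts was −0.01 in the deposited scaling. In bulk libraries a change in the amount of RNA per cell and a change in the share of cells that carry it cannot be told apart.

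The writer genes showed no called change in their main transcripts. *Mettl3* lies on chromosome 14 from 52294841 to 52305128 on the minus strand, and 1 of its 15 annotated transcripts was tested. ENSMUST00000022767.15, which encodes 580 residues, had a level of 923 in KD and 787 in WT. The log2(fold change) was 0.23 (standard error 0.12, 95% confidence interval −0.01 to 0.47, q = 0.128). The libraries were separate by at least 0.06 on the log2 scale against an SD of 0.12, and the interval allows a rise of up to 38.3%.

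*Mettl14*, on chromosome 3 from 123368297 to 123386108 on the minus strand, encodes the subunit that recognises the histone mark that SETD2 places. The full-length transcript ENSMUST00000029759.15, with 456 residues, had nearly the same level in both groups, 1496 in KD and 1512 in WT. Its log2(fold change) was −0.02 (standard error 0.10, q = 0.135), and the 95% confidence interval ran from a level 13.6% lower to one 13.3% higher in KD. The isoform that reads through introns 7 to 10, ENSMUST00000090371.13 with 217 residues, had a level of 128 in KD and 131 in WT. This gave a log2(fold change) of −0.03 (standard error 0.26, q = 0.365). The isoform that reads through intron 10 alone, ENSMUST00000174323.5 with 377 residues, had 88.4 in KD and 132 in WT (log2(fold change) −0.57, standard error 0.39, q = 0.241), with separate libraries. None of the 31-base words of this isoform is its own, so its count rests entirely on how reads were divided among the isoforms. The intron-reading forms made up 6.65% of the length-scaled level of *Mettl14* in KD and 8.24% in WT.

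*Zc3h13*, on chromosome 14 from 75284373 to 75344426 on the plus strand, had isoforms that differ in the choice of splice acceptors 3 bases apart and slightly in their start. ENSMUST00000227049.1, which holds the CAG shown above, had a level of 1492 in KD and 1520.2 in WT (log2(fold change) −0.03, standard error 0.14, q = 0.261). ENSMUST00000022577.5 had 1049 in KD and 1203 in WT (log2(fold change) −0.20, standard error 0.17, q = 0.183), with separate libraries. Among basic transcripts each has about 1% of its 31-base words to itself, and the share of the first was 58.7% in KD and 55.8% in WT.

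*Wtap*, on chromosome 17 from 12966796 to 12994169 on the minus strand, had 4 tested transcripts, which combine an upstream or downstream first exon with a full-length or short reading frame. The short frame, with 151 residues against 396, ends inside intron 6 at the TAA shown above, directly behind the splice donor. Its transcript with the upstream first exon, ENSMUST00000160781.7, had a level of 2122 in KD and 1907 in WT. This gave a log2(fold change) of 0.15 (standard error 0.17, q = 0.490). The short form with the downstream first exon, ENSMUST00000159986.7, had 848 in KD and 663 in WT. It had a log2(fold change) of 0.35 (standard error 0.17, q = 0.133) with separate libraries, and after centring on GC content one of 0.61 with a Wald q-value of 0.00277. This transcript has a GC content of 39.6%, against a median of 49.2% over all matched transcripts. The main full-length form, ENSMUST00000007007.13 with the downstream first exon, had 1685 in KD and 1872 in WT. It had a log2(fold change) of −0.15 (standard error 0.10, q = 0.108), again with separate libraries.

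The called *Wtap* transcript was the full-length form with the upstream first exon, ENSMUST00000159551.7. It was at 0 in both KD libraries, while the WT libraries had 31 and 118 normalised estimated counts, values that follow from the deposited mean and variance once KD is at its minimum. The WT level of 60.7, a mean of both libraries, was 20.2 times a floor of 3 counts per library. For this transcript the likelihood ratio q-value was 0.0192, and limma's moderated test gave an adjusted p-value of 0.0239. Only 3 of its 2023 words of 31 bases, 0.15%, occur in no other basic transcript, and it made up 1.53% of the length-scaled level of *Wtap* in WT. The call therefore rests on how reads were divided between it and the other *Wtap* forms. The other full-length form differs from it in the first exon, and the short form ENSMUST00000160781.7 has the upstream first exon as well. Summed over the full-length forms, the level was 1685 in KD and 1933 in WT, a log2(fold change) of −0.20, and summed over the short forms it was 2969 in KD and 2570 in WT, a log2(fold change) of 0.21. The short forms thus made up 58.0% of the length-scaled level of *Wtap* in KD and 51.2% in WT, and forms with the upstream first exon made up 44.4% and 42.0%. These shares come from levels summed after averaging, so their spread between libraries is unknown and they were not tested. *Wtap* shares words with several processed copies, of which *Gm14292* was tested and had a level of 641 in KD and 645 in WT (log2(fold change) −0.01, standard error 0.14, q = 0.257).

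**Figure D3:**
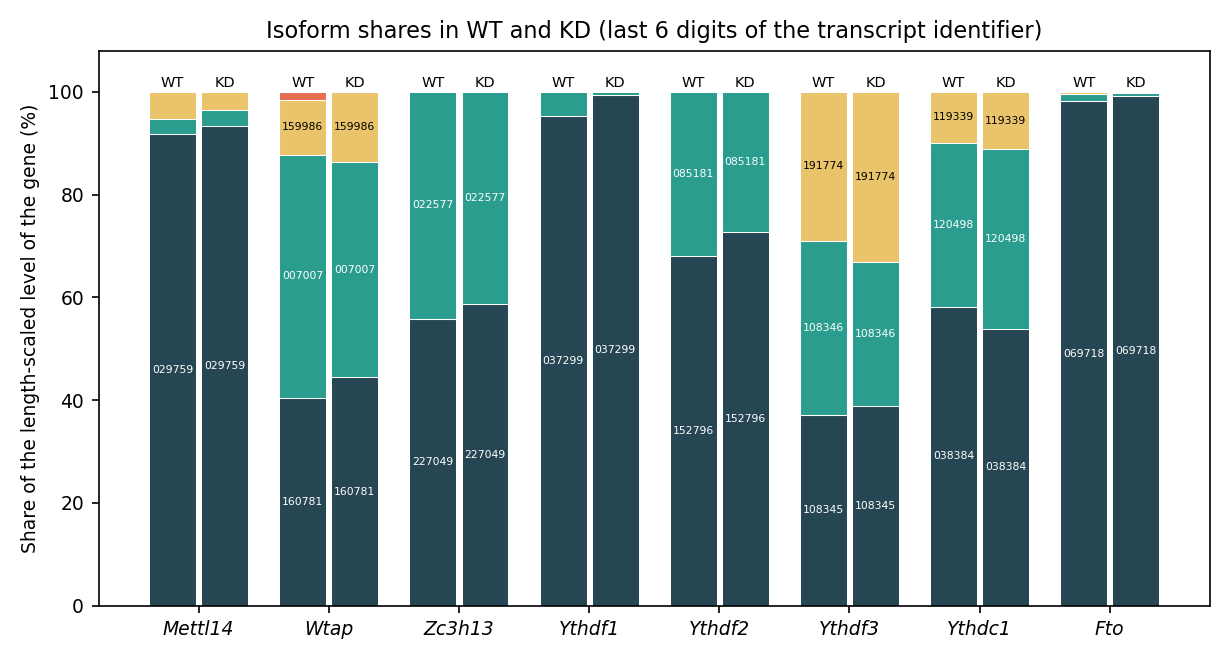
Share of each tested isoform in the length-scaled level of its gene (%), in WT (left bar) and KD (right bar), for the 8 members with more than 1 tested transcript, with isoforms named by the last 6 digits of their identifier. No error bars are drawn, since values of single libraries were not given. The short *Wtap* forms ENSMUST00000160781.7 and ENSMUST00000159986.7 together take 51.2% in WT and 58.0% in KD, and *Ythdf3* ENSMUST00000108346.4 takes 33.9% and 28.0%.

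*Ythdf3*, on chromosome 3 from 16183212 to 16217037 on the plus strand, encodes a cytoplasmic reader that acts with YTHDF1 and YTHDF2. Of the uncalled reader isoforms, a *Ythdf3* transcript had the lowest likelihood ratio q-value. ENSMUST00000108346.4, which includes the 33-base exon shown above and encodes 596 residues, had a level of 1789.7 in KD and 2436 in WT. Its log2(fold change) was −0.44 (standard error 0.17, 95% confidence interval −0.78 to −0.11), with a likelihood ratio q-value of 0.0842 and a Wald q-value of 0.0468. After centring on GC content, which is 38.4% for this transcript, the log2(fold change) was −0.06 with a Wald q-value of 0.921. The libraries were separate by at least 0.24 on the log2 scale. In limma's moderated test the adjusted p-value was 0.0894. The isoform without that exon, ENSMUST00000108345.8 with 585 residues, had 2578 in KD and 2758 in WT (log2(fold change) −0.10, standard error 0.24, q = 1). ENSMUST00000191774.5, with 589 residues, had 1372 in KD and 1349 in WT (log2(fold change) 0.02, standard error 0.12, q = 0.217), and relative to *Actb* it was lower by −0.43. The share of the isoform with the 33-base exon was 28.0% of the length-scaled level in KD and 33.9% in WT.

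*Ythdf1*, on chromosome 2 from 180904377 to 180920949 on the minus strand, encodes the reader best known for promoting translation. Its main transcript ENSMUST00000037299.14, with 559 residues, had a level of 4172 in KD and 3689 in WT (log2(fold change) 0.18, standard error 0.15, q = 0.357). ENSMUST00000108876.8, which adds a coding exon of 81 bases, had a level of 16.9 in KD and 128 in WT with a q-value of 1. Its log2(fold change) of −2.88 had a standard error of 5.40, so its libraries spread too widely for the levels to be compared.

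The nuclear reader YTHDC1 acts in splicing and in the export of m6A-marked RNA. *Ythdc1* lies on chromosome 5 from 86804221 to 86836659 on the plus strand, and its isoforms differ by the 54-base exon and the 24-base stretch shown above. ENSMUST00000038384.7, which has both and encodes 736 residues, had a level of 3584 in KD and 4181 in WT. The log2(fold change) was −0.22 (standard error 0.16, 95% confidence interval −0.53 to 0.09, q = 0.286), and its libraries were separate by less than the last digit given here. ENSMUST00000120498.7, with the 54-base exon and 728 residues, had 2571 in KD and 2546 in WT (log2(fold change) 0.01, standard error 0.14, q = 0.233), and relative to *Actb* it was −0.44. ENSMUST00000119339.7, which lacks both stretches and encodes 710 residues, had 809 in KD and 774 in WT (log2(fold change) 0.06, standard error 0.21, q = 0.319). Forms with the 54-base exon made up 88.8% of the length-scaled level in KD and 90.1% in WT, and the form with the 24-base stretch made up 53.9% and 58.1%. About 20% of the 31-base words of these transcripts also occur in *Gm43055*, which was not analysed here.

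Set against all transcripts tested, the members were abundant. Their median of the mean level was 1432 normalised estimated counts, against 155 over all transcripts. The median SD between libraries was 0.14 on the log2 scale, against 0.19 over all transcripts and 0.11 over those of at least 100 counts. Of the 20 member transcripts with a mean of at least 100, 19 (95%) had an estimated log2(fold change) under 0.5 in size, against 75.6% of all transcripts above that mean, the exception being the intron-reading *Mettl14* ENSMUST00000174323.5. The median size was 0.17 and 0.28. The 4 member transcripts with a lower mean had estimates of −6.94, −2.88, −1.08 and −0.76. The median log2(fold change) of the 20 transcripts was 0.02, against 0.05 over all transcripts above the same limit. Over all 24 it was −0.02, against −0.01 over all transcripts. The confidence intervals of the 20 transcripts extended from −1.34 to 0.68 on the log2 scale, so larger changes than those estimated were not excluded for the rarer isoforms.

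**Figure D4:**
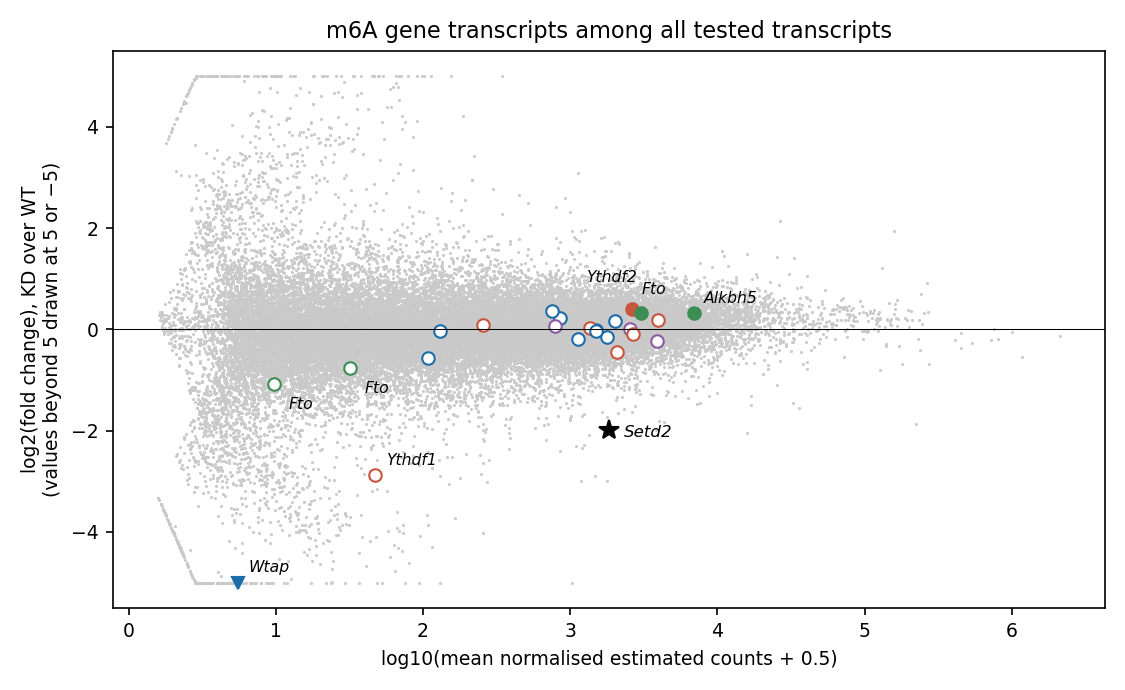
The log2(fold change) of KD over WT against the log10 of the mean level (normalised estimated counts plus 0.5) for all 34200 tested transcripts (grey), with the 24 member transcripts coloured by role and filled where called, and *Setd2* as a star. Values beyond 5 in size are drawn at 5 or −5, as for the called *Wtap* isoform (triangle). *Setd2* lies at −1.99, below all member transcripts of at least 100 counts, whose lowest value is −0.57.

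The members were also compared with all transcripts in features that the choice by name did not use. Single member transcripts ranged from 955 to 7197 bases in length and from 38.4% to 52.8% in GC content. Their transcripts had a median length of 3246 bases, against 2393 over the matched transcripts, and a median GC content of 44.9%, against 49.2%. The motif GGACT, a frequent sequence context of m6A, was searched on the transcript strand within 100 bases on each side of the end of the stop codon, where m6A is often placed. It was present in 6 of the 24 member transcripts, namely those of *Mettl3*, *Alkbh5*, both of *Ythdf2* and the full-length *Wtap* forms. That share was close to the 24.2% found over 23701 coding transcripts with a full window. Of the 4 called transcripts, those of *Ythdf2*, *Alkbh5* and *Wtap* held the motif and that of *Fto* did not. Uncalled transcripts of *Mettl3*, *Wtap* and *Ythdf2* held it too. The share with the motif among all called transcripts was not computed, and a link between motif and call was not tested. A match of letters does not show that a site is methylated, and methylation of RNA was not measured.

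The other genes of the pathway were taken from a list of 29 genes in 5 roles, all of them tested, with 73 transcripts. Of these, 13 transcripts of 11 genes were called, which is 17.8% against 12.5% of all transcripts, with 9 higher and 4 lower in KD in the deposited scaling. All 13 were among the 66 whose mean reached 100 counts, a class with a background share of 21.4%, and the counts of the roles below are to be read against these shares. Relative to *Actb*, none of the 73 transcripts was called higher, against 404 of all 34200 transcripts. Of the 42 transcripts with a higher estimate, 32 (76.2%) turned lower, against 64.1% of all transcripts with a higher estimate. The median log2(fold change) of the 73 transcripts was 0.06.

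Among 10 transcripts of the accessory writer subunits, 1 was called. This was ENSMUST00000059914.12 of *Virma*, the scaffold of the writer complex, with a level of 2493 in KD and 3383 in WT (log2(fold change) −0.44, standard error 0.09, q = 0.0263), and its adjusted p-value in limma's moderated test was 0.0523. Another *Virma* transcript, ENSMUST00000055372.13, had 407 in KD and 727 in WT (log2(fold change) −0.84, standard error 0.26, q = 0.0611). Among 9 transcripts of other N6-adenosine methyltransferases and their partners, 4 were called, all higher in the deposited scaling. *Trmt112* encodes the partner of the ribosomal RNA methyltransferase METTL5. Its ENSMUST00000116551.9 had a level of 3179.8 in KD and 1957 in WT (log2(fold change) 0.70, standard error 0.11, q = 0.0166), which became 0.24 relative to *Actb* (Wald q = 0.237). The other tested *Trmt112* transcripts had log2(fold changes) of 0.23 (q = 0.222) and 0.55 (q = 0.147). *Mettl16*, whose product methylates U6 snRNA and the *Mat2a* transcript, had called transcripts with log2(fold changes) of 0.33 (q = 0.0329) and 0.40 (q = 0.0261), which became −0.13 and −0.05 relative to *Actb*. *Zcchc4* encodes another ribosomal RNA methyltransferase. Its ENSMUST00000113904.8 had 689 in KD and 495 in WT (log2(fold change) 0.48, standard error 0.14, q = 0.0409), which became 0.02 relative to *Actb* (Wald q = 0.952). The other tested *Zcchc4* transcript had 162 in KD and 160 in WT (log2(fold change) 0.01, q = 0.311). In limma's moderated test, *Zcchc4* (adjusted p = 0.0616) and *Mettl16* ENSMUST00000010698.12 (adjusted p = 0.0622) were not called.

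Among 33 transcripts of other readers and m6A-sensitive RNA-binding proteins, 3 were called, all higher in KD in the deposited scaling. *Igf2bp3*, which encodes a protein that stabilises bound mRNA, had a level of 4779 in KD and 2840.4 in WT (log2(fold change) 0.75, standard error 0.08, q = 0.0106), which became 0.29 relative to *Actb* (Wald q = 0.0878). Its relative *Igf2bp1* had 5368 in KD and 4493 in WT (log2(fold change) 0.26, standard error 0.08, q = 0.0459), which became −0.20 relative to *Actb*. *Prrc2a* ENSMUST00000025253.11 had 29188 in KD and 21008 in WT (log2(fold change) 0.47, standard error 0.12, q = 0.0430), which became 0.02 relative to *Actb* (Wald q = 0.955). The other tested *Prrc2a* transcript had a log2(fold change) of 0.28 (q = 0.133). For the called transcripts, centring on GC content gave 0.18 for *Igf2bp1* and 0.28 for *Prrc2a*, and neither was called then. Nor were they in limma's moderated test, with adjusted p-values of 0.0973 and 0.0539.

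Among 15 transcripts of partners of the readers, 4 were called, 1 higher and 3 lower in KD. ENSMUST00000215817.1 of *Upf1*, which encodes the helicase of nonsense-mediated decay, had a level of 4023 in KD and 2533 in WT (log2(fold change) 0.67, standard error 0.10, q = 0.0153), which became 0.21 relative to *Actb* (Wald q = 0.321). The other tested *Upf1* transcript, ENSMUST00000075666.7, had 2358 in KD and 2430.4 in WT (log2(fold change) −0.04, standard error 0.17, q = 0.609). *Rida*, whose product bridges YTHDF2 to RNA cleavage, had 959.8 in KD and 1429 in WT (log2(fold change) −0.57, standard error 0.11, q = 0.0261). *Nxf1*, which encodes the mRNA export receptor that works with YTHDC1, had called transcripts with log2(fold changes) of −0.43 (standard error 0.08, q = 0.0156) and −0.73 (standard error 0.14, q = 0.0228). Of 6 transcripts of methyl donor supply, 1 of *Mat2a* was called. *Mat2a* encodes the synthetase of S-adenosylmethionine, the methyl donor of the writers, and its ENSMUST00000059472.9 had 15021 in KD and 10661 in WT (log2(fold change) 0.49, standard error 0.08, q = 0.0148), which became 0.04 relative to *Actb* (Wald q = 0.878). The more abundant *Mat2a* ENSMUST00000205335.1 had 18320.3 in KD and 18273 in WT (log2(fold change) 0.004, standard error 0.11, q = 0.284).

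**Figure D5:**
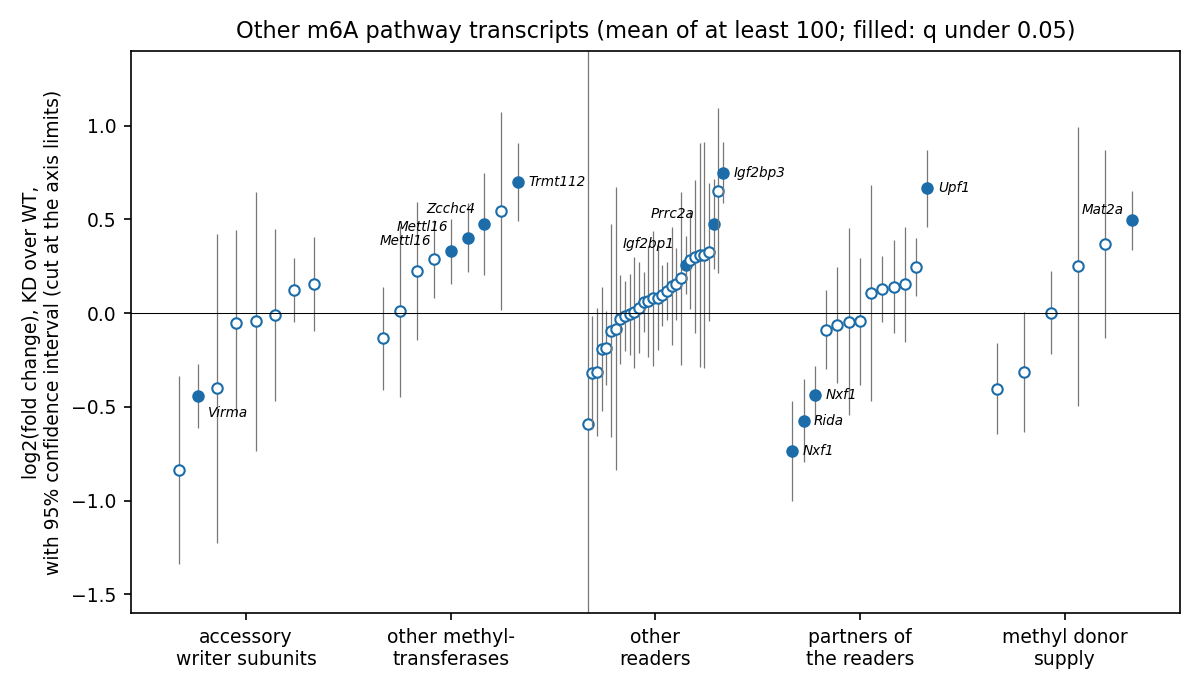
The log2(fold change) of KD over WT with its 95% confidence interval for the 66 transcripts of the wider list with a mean of at least 100, grouped by role, ordered by value within a role and filled where the q-value was under 0.05. *Igf2bp3*, *Trmt112* and *Upf1* reach 0.75, 0.70 and 0.67, and the lowest called value is that of *Nxf1* at −0.73. Relative to *Actb*, no transcript was called higher, and the called ones of *Mettl16* and *Igf2bp1* change sign.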

How the data were processed

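RNA-seq of NIH/3T3 cells was analysed for 2 KD and 2 WT libraries, grouped by the *Setd2* label of each sample. Stranded libraries of polyadenylated RNA were prepared from 900 ng of RNA each and sequenced on 1 lane. According to the study's methods, adapters were removed with BBDuk, transcripts were quantified with Kallisto and groups were compared in Sleuth. Covariates are not given in the sources used here. The submitters' processing notes also name bcl2fastq 2.17, HISAT2 and GRCm38. The index is not given in the sources used here.

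The authors deposited effects, standard errors, means and variances on the natural log scale of normalised estimated counts plus 0.5, together with the score of the likelihood ratio test. The deposited p-values and q-values stem from the authors' Wald test, likelihood ratio test and gene test, and a deposited column gives the count of transcripts of a gene. Other deposited columns hold identifiers and categories. The design chosen here used these q-values because values of single libraries were not given, so no count model was run and no interval for counting error could be made.

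Division of the effects by ln 2 gave log2(fold changes), and their standard errors gave 95% confidence intervals. The level in a group was the exponential of the mean plus or minus 0.5 times the effect, minus 0.5. The variance within groups was obtained from the deposited variance and effect with 2 degrees of freedom. It was used for the SD between libraries, for the statement that libraries were separate, and in limma 3.58.1 (R 4.3.3) with a trend on the mean and Benjamini-Hochberg adjustment. The scripts were tested on simulated data. Annotation and sequences came from GENCODE M21, which matched 98.6% of transcript identifiers. Words of 31 bases, the length that Kallisto uses by default, were compared over the annotated transcripts with GENCODE's basic tag. Of the 62 annotated member transcripts, 25 carry this tag. All 10 members with every tested transcript were named, and from the wider list every gene with a called transcript and, in each role, the gene with the largest change among transcripts of at least 100 counts. *Gm14292* and *Actb* were named because results touch them. The members and lists were chosen with earlier results of these data known. Alternatives were the Wald q-values, limma, limits of 100 and 1000 counts, 3 scalings, gene q-values and, for sums, a pseudocount of 5, protein-coding transcripts and the main transcript alone. Division of the sums by *Actb* was added after seeing the data.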

Additional observations from a re-analysis of the deposited data

How the results depend on the processing

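The *Setd2* change kept its direction under every alternative that was run for it. For the summed levels of the members, the median log2(fold change) of 0.09 turned to −0.36 relative to *Actb*, an alternative chosen after seeing the data. The number of called member transcripts was 4 in the deposited test (16.7% against 12.5% of all transcripts). It was 1 in limma's moderated test (0 higher, 1 lower, 4.17% against 9.68%). Relative to *Actb* it was 11, all of them lower (45.8% against 26.9%). For the wider list the number was 13 in the deposited test (17.8% against 12.5% of all transcripts). It was 20 of 66 with a limit of 100 counts (30.3% against 34.2%) and 21 of 49 with a limit of 1000 (42.9% against 66.2%). After centring on GC content it was 20 (27.4% against 15.7%). Relative to *Actb* it was 23, all of them lower (31.5% against 26.9%). Over all 34200 transcripts 4266 were called, against 6440 of 18808 and 5961 of 9010 with the limits of 100 and 1000 and 9196 relative to *Actb*, where 4.39% of the calls were higher in KD against 58.2% in the deposited scaling. Of all transcripts with a higher estimate, 64.1% turned lower relative to *Actb*, and so did all 11 such member transcripts. Those called in either scaling, with called transcripts of the wider list, were the main transcripts of *Ythdf2* (−0.047), *Alkbh5* (−0.14) and *Fto* (−0.13), and *Ythdf3* ENSMUST00000191774.5 (−0.43), *Ythdc1* ENSMUST00000120498.7 (−0.44), *Mettl16* (−0.053 and −0.13) and *Igf2bp1* (−0.20), as follows from the subtraction of the *Actb* change. With the limit of 1000 counts, where fewer transcripts are adjusted for, *Ythdf3* ENSMUST00000108346.4 (q = 0.0355) and *Wtap* ENSMUST00000007007.13 (q = 0.0464) were also called, as 5 of 14 members against 66.2% of all transcripts, but after centring on GC content they were at −0.06 (q = 0.921) and −0.08 (q = 0.761). No paired analysis was possible because the deposited tables hold no values of single libraries, and for the same reason leaving out each library was not run. Depth is unknown, and rare isoforms with few words of their own are limited by the assignment of reads.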
